A study of Mus musculus with 10 samples.

Results

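The 10 genes described here are subunits of the respiratory chain and of ATP synthase that the mitochondrial genome encodes: mt-Nd1, mt-Nd2, mt-Nd3, mt-Nd4 and mt-Nd5 of complex I, mt-Cytb of complex III, mt-Co1, mt-Co2 and mt-Co3 of complex IV, and mt-Atp6 of complex V. They were taken by symbol from 10 tables of counts that list 18281 gene symbols, 13 of which carry the prefix mt-. All 10 had counts in every library and all 10 passed the filter on low counts. Microglia, sorted as live CD11b high and CD45 intermediate cells from C57BL/6 mice, were profiled as single cells with the 10x Genomics 3' kit v2, in which each molecule carries a unique molecular identifier (UMI). There were 5 groups with 2 libraries each. Adult libraries came straight from the brains of adult mice aged 10 to 15 weeks. In vitro libraries came from flat mixed glial cultures of neonatal cortex kept for 3 weeks, of which the microglia shed into the medium were collected. Slice libraries came from brain slices of newborn pups that had been cultured for 1 day, 1 week or 3 weeks, with several slices pooled where needed. The slice medium received the growth factor hPDGF whenever it was changed, a step described for the slices alone, and otherwise no group carried a transgene or was treated with a drug. The number of animals behind a library was not given, so p-values measure the spread between libraries, which may be technical.

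The respiratory chain passes electrons from nutrients to oxygen through complexes I, III and IV, each of which pumps protons across the inner mitochondrial membrane, and ATP synthase uses the proton gradient to make ATP. Complex II is built from nuclear genes alone, whereas the other complexes combine the subunits named here with many subunits imported from the cytosol, so that a complete complex needs transcripts of both genomes. The mitochondrial genes sit on a small circular genome that is read as long transcripts and then cut into messages, and microglia are known to shift between oxidative and glycolytic metabolism when they are activated.

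The annotated ends of 6 of the genes are shown because some mitochondrial messages lack a complete stop codon in the DNA. The kit primes on a poly(A) tail. For genes with a complete stop codon, whether the tail directly follows the bases shown was not tested. The sequences are the last 30 annotated bases of each gene, 5′ to 3′, from the GENCODE M21 transcripts on GRCm38, and the capitals mark the bases of the stop codon.
mt-Co1: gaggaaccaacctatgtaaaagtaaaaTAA
mt-Nd1: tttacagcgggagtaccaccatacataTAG
mt-Nd5: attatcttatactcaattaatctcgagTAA
mt-Nd4: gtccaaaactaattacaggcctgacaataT
mt-Cytb: tcgaagacaaaatactaaaattatatccaT
mt-Co3: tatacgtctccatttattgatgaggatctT
A complete stop codon was present in 7 of the 10 genes and only its first base in 3 (mt-Nd4, mt-Cytb and mt-Co3), where the poly(A) tail supplies the rest of the codon. Annotated lengths ran from 348 bases for mt-Nd3 to 1824 bases for mt-Nd5, and the longest run of A within a gene ran from 4 to 8 bases.

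On the mitochondrial chromosome of GRCm38 all 10 genes lie on the plus strand. In order they are mt-Nd1 at chrM:2751-3707, mt-Nd2 at chrM:3914-4951, mt-Co1 at chrM:5328-6872, mt-Co2 at chrM:7013-7696 and mt-Atp6 at chrM:7927-8607. These are followed by mt-Co3 at chrM:8607-9390, mt-Nd3 at chrM:9459-9806, mt-Nd4 at chrM:10167-11544, mt-Nd5 at chrM:11742-13565 and mt-Cytb at chrM:14145-15288. Neighbours overlap in places: mt-Atp6 shares bases with mt-Atp8 and mt-Co3, mt-Nd4 with mt-Nd4l, and the end of mt-Nd5 lies opposite the end of mt-Nd6 on the other strand. A block at chr1:24611535-24616197 holds annotated nuclear copies, on the minus strand, of 6 of the 10 genes (mt-Co1, mt-Co2, mt-Co3, mt-Atp6, mt-Nd3 and mt-Nd4), and the identity was 98.78% for the copied part of mt-Co1 and complete for several others. None of these copies had a row in the count tables. The counts of these 6 genes are therefore uncertain to the extent that reads were shared or dropped upstream, which may differ between the 6, while mt-Nd1, mt-Nd2, mt-Nd5 and mt-Cytb have no annotated copy.

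Across the series, the tables held 19637 barcodes, of which 19059 were kept as cells with at most 5% of UMIs from mt- genes, at least 400 genes and at most 30000 UMIs. The study's methods also name a step that set outlying cells aside by t-SNE, a map of cells by their expression. That step was not repeated here, so that kept cells include some that the study did not analyse. At slice 1 week the paper's figure legends count far fewer cells than were kept here. Most of the slice 1 week cells kept here lie outside that count, and the slice 1 week values rest largely on them. Kept cells per library ran from 61 and 148 at slice 1 week to 3799 in adult replicate 1, and total UMIs per library from 385373 to 39689540. Median UMIs per kept cell were 3257 and 1858 in adult, 12858 and 13966 in vitro, and 5266 to 8335 in the 6 slice libraries. All 8 microglial markers were detected in each library, with a summed level of 34847 and 35679 CPM in adult (UMIs of a gene scaled to a common library total) and 4734 to 18048 in the other 8. Neutrophil markers (5 genes) summed to 7568 and 21923 CPM at slice 1 day, to 39312 and 955 at slice 1 week, and to at most 7.91 elsewhere, and border macrophage markers (4 genes) to 2226 and 2096 in vitro against at most 286 elsewhere. Erythrocyte markers (3 genes) summed to 1686 CPM in adult replicate 1 and 3093 CPM in slice 1 day replicate 1, and to at most 0.895 in the other 8 libraries. The labels give 1 study code for adult replicate 1 and slice 3 weeks replicate 1, and another code, called study label here as well, for the other 8. Of 19410 barcode sequences, 226 occurred in more than 1 library.

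Transcripts of the mitochondrial genome took the largest share of UMIs in vitro and the smallest in adult microglia. In kept cells the 13 mt- genes held 1.35% and 1.04% of UMIs in adult, 1.33% and 1.33% at slice 1 day, 1.44% and 1.88% at slice 1 week, 1.83% and 1.57% at slice 3 weeks, and 2.33% and 2.49% in vitro. The in vitro libraries lay above the other 8, and the slice 1 day libraries lay within the range of the adult pair. Group means were 1.20% ± 0.224 in adult, 1.33% ± 0.00206 at slice 1 day, 1.66% ± 0.311 at slice 1 week, 1.70% ± 0.182 at slice 3 weeks and 2.41% ± 0.117 in vitro (SD, n = 2 libraries). With 2 libraries against 2 an exact permutation test cannot give a two-sided p under 0.333, and these shares are given as values, with no test between pairs of groups and no model over all 5 groups. The 10 genes made up between 98.6% and 99.7% of the mt- UMIs of a library. Per kept cell they gave 43.8 and 19.9 UMIs in adult, 93.3 and 124 at slice 1 day, 104 and 118 at slice 1 week, 123 and 92.3 at slice 3 weeks, and 326 and 368 in vitro, in cells whose total UMIs also differed.

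The limit of 5% acts on these very genes, so each value was also taken over all barcodes. Of the 578 barcodes removed, 349 were over the limit: 0.782% and 0.139% of the barcodes in adult, 1.33% and 0.870% at slice 1 day, 6.92% and 5.88% at slice 1 week, 5.57% and 2.27% at slice 3 weeks, and 2.31% and 2.44% in vitro. The 95% exact binomial interval, which covers counting error only, was 0.0453% to 0.325% in adult replicate 2 and 4.35% to 7.01% in slice 3 weeks replicate 1. For slice 1 week replicate 2, with 68 barcodes, it ran from 1.63% to 14.4%. Just inside the limit, between 4% and 5%, lay 56 and 121 barcodes at slice 3 weeks, 34 and 76 in vitro, 30 and 1 in adult, 6 and 9 at slice 1 day and 1 and 2 at slice 1 week. Just outside, between 5% and 6%, lay 21 and 47, 21 and 16, 20 and 3, 0 and 4, and 1 and 1 barcodes of the same groups.

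**Figure D1:**
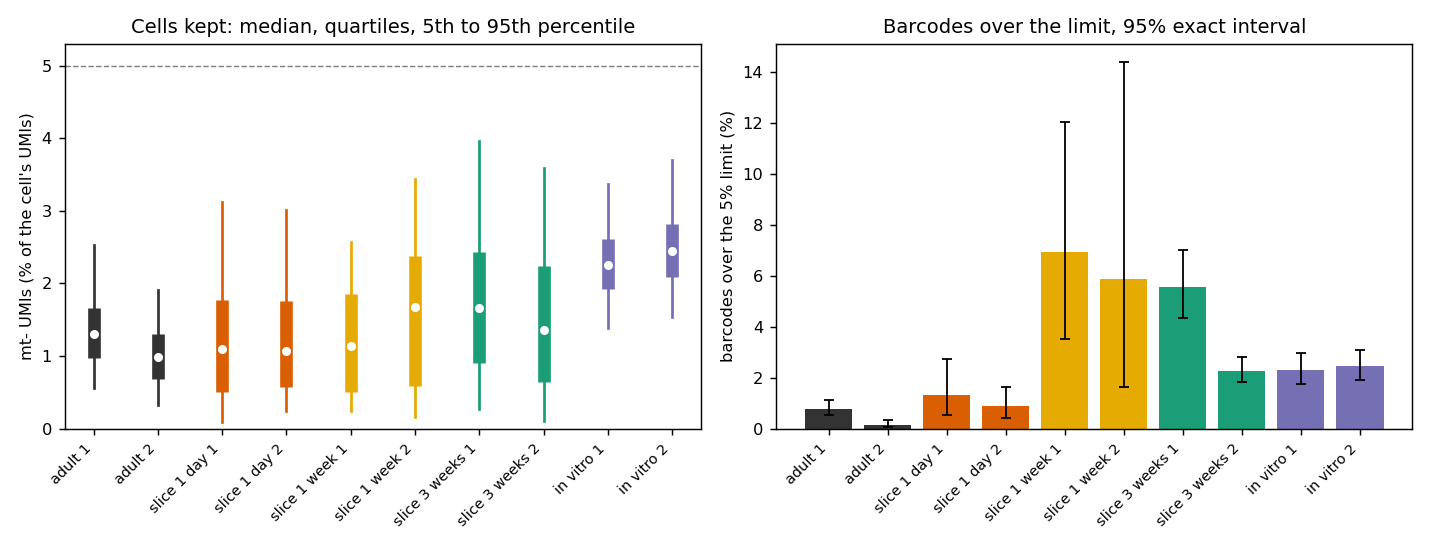
Left, the percent of a cell's UMIs from the 13 mt- genes in kept cells of each library (white point, median; box, quartiles; line, 5th to 95th percentile; dashed line, the 5% limit). Right, the percent of barcodes over that limit with its 95% exact binomial interval, from 0.139% in adult replicate 2 to 6.92% in slice 1 week replicate 1.

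Over all barcodes the share of mt- UMIs was 1.37% and 1.04% in adult, 1.37% and 1.36% at slice 1 day, 1.62% and 2.14% at slice 1 week, 2.00% and 1.63% at slice 3 weeks, and 2.39% and 2.56% in vitro. The order of the group means changed only between the slices, with slice 1 week (1.88%) above slice 3 weeks (1.82%) over all barcodes, a difference smaller than the spread within either group. Barcodes over the limit held 14.1% and 14.3% of the mt- UMIs at slice 1 week, 11.7% and 5.24% at slice 3 weeks, and at most 4.06% in the other 6 libraries. Over all barcodes the level of the median gene of the 10 was 13.1% and 14.2% higher than in kept cells at slice 1 week, 9.36% and 4.04% higher at slice 3 weeks, and 0.652% to 3.41% higher elsewhere. The removed barcodes also differed in make-up: as a share of the 10 genes' UMIs, mt-Nd1 was larger in barcodes over the limit in 9 of 10 libraries, mt-Co3 and mt-Atp6 in 8, mt-Nd2 and mt-Co2 were smaller in 9, and mt-Co1 and mt-Nd5 were smaller in 8.

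To compare groups, counts summed over the kept cells of each library were tested with edgeR's quasi-likelihood test across 12155 genes, and a gene was called at an adjusted p (FDR, Benjamini-Hochberg) under 0.05 and a fold change over 1.5. All 10 mitochondrial genes were higher in vitro than in adult, with a median log2 fold change of 1.10, where 22.4% of all tested genes were called higher and the median over all genes was -0.11. At slice 1 day 1 of the 10 was called higher than in adult (mt-Co1), beside 24.9% of all genes. At slice 1 week 3 were called higher (mt-Co1, mt-Co2 and mt-Co3), beside 15.0% of all genes, and at slice 3 weeks 5 (mt-Co1, mt-Co2, mt-Co3, mt-Nd3 and mt-Nd5), beside 18.0%. No member was called lower than in adult in any of the 4 comparisons, in which 28.5%, 25.4%, 13.6% and 17.5% of all genes were called lower. The medians of the 10 log2 fold changes were 0.27, 0.52 and 0.57 at slice 1 day, 1 week and 3 weeks, beside medians of -0.06, -0.08 and -0.03 over all genes. These 4 comparisons share the adult libraries.

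**Figure D2:**
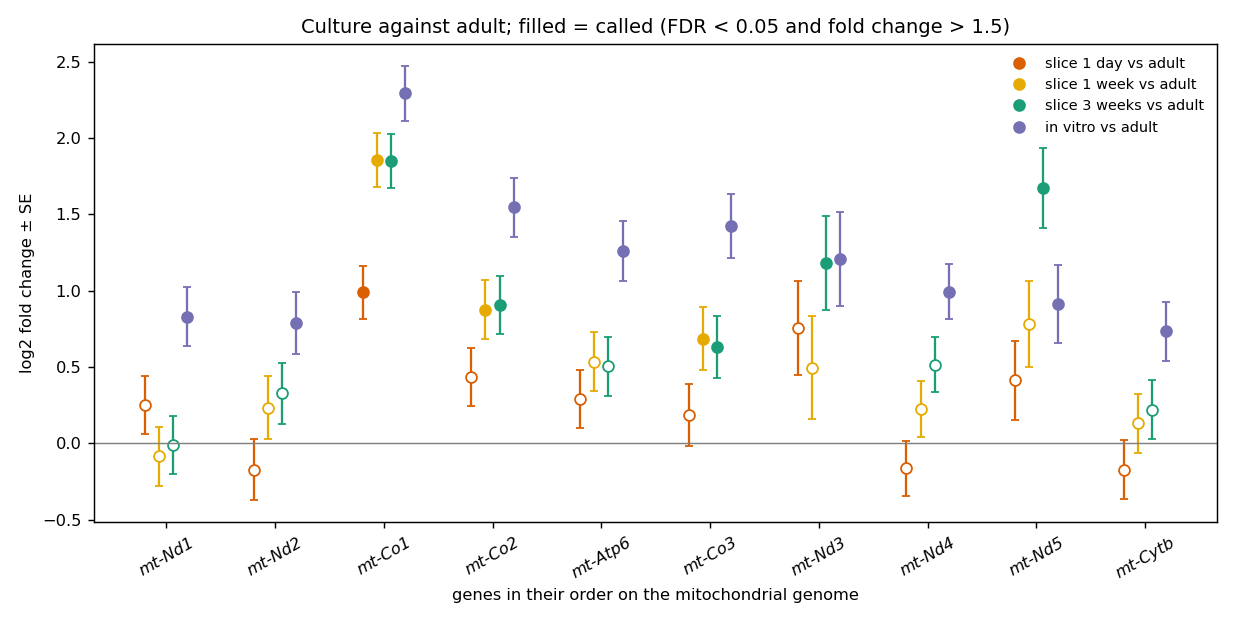
Log2 fold change against adult (y axis, points with ± SE from the edgeR fit of 10 libraries) for the 10 genes in their order along the mitochondrial genome (x axis), for the 4 kinds of culture. Filled points passed both thresholds: 10 genes in vitro, 5 at slice 3 weeks, 3 at slice 1 week and mt-Co1 alone at slice 1 day.

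The count of calls in slices depended on the mt- limit. Over all barcodes, 2 genes were called at slice 1 day, 5 at slice 1 week and 7 at slice 3 weeks, while the count in vitro stayed at 10. The calls added were mt-Nd3 at slice 1 day, mt-Nd5 and mt-Atp6 at slice 1 week, and mt-Nd4 and mt-Atp6 at slice 3 weeks. Levels below are in CPM over kept cells, and fold changes come from the fit with TMM scaling, in which the adult libraries had factors of 1.10 and 1.14 and the in vitro libraries 0.917 and 0.898, so that fitted folds in vitro exceed the ratios of the plain levels. With scaling by library size alone the median over all genes in vitro against adult moved from -0.11 to -0.42 on the log2 scale, and 7 of the 10 were still called higher.

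Complex I takes electrons from NADH, and its mitochondrially encoded subunits form the membrane arm that pumps protons. mt-Nd1, a core subunit at the joint with the matrix arm, had a level of 1910.0 and 1580.3 in adult, 1880.3 and 1935 at slice 1 day, 1210.3 and 1674 at slice 1 week, 1737 and 1286 at slice 3 weeks, and 2372 and 2655 in vitro. The in vitro libraries lay above the other 8, and each slice group overlapped with the adult pair. mt-Nd1 was 1.78-fold higher in vitro than in adult (log2 fold change 0.83, SE 0.19, adjusted p = 0.00375), and its log2 fold changes in slices were 0.25 at 1 day, -0.09 at 1 week and -0.01 at 3 weeks, none of them called.

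mt-Nd2, another proton-pumping subunit, had a level of 445 and 307 in adult, 303 and 311 at slice 1 day, 321 and 459 at slice 1 week, 407 and 416 at slice 3 weeks, and 517 and 538 in vitro. mt-Nd4, which belongs to the same family of pumping subunits, had a level of 1085 and 831 in adult, 783 and 791 at slice 1 day, 818 and 1149.5 at slice 1 week, 1177 and 1211 at slice 3 weeks, and 1539 and 1553 in vitro. For both genes the in vitro libraries were above the other 8 and the slice 1 day libraries were near the lower adult library, and for mt-Nd4 the slice 3 weeks libraries were above both adult libraries. In vitro against adult the log2 fold change was 0.79 (SE 0.20, adjusted p = 0.00669) for mt-Nd2 and 0.99 (SE 0.18, adjusted p = 8.79e-04) for mt-Nd4. At slice 3 weeks mt-Nd4 had an adjusted p of 0.0415 but a fold of 1.43, below the threshold on size.

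mt-Nd3, the smallest of the 10 genes, had a level of 125 and 58.2 in adult, 149 and 138 at slice 1 day, 91.6 and 143 at slice 1 week, 206 and 159.8 at slice 3 weeks, and 161 and 185 in vitro. The adult pair differed by more than a factor of 2 and the slice 1 week libraries overlapped with it, whereas the slice 1 day, slice 3 weeks and in vitro libraries lay above it. mt-Nd3 was higher in vitro (log2 fold change 1.21, SE 0.31, adjusted p = 0.00654) and at slice 3 weeks (1.18, SE 0.31, adjusted p = 0.0114), and at slice 1 day its value of 0.76 had an adjusted p of 0.0571.

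mt-Nd5, the subunit at the far end of the membrane arm, had its highest levels at slice 3 weeks. Its level was 86.0 and 57.2 in adult, 78.9 and 96.7 at slice 1 day, 111 and 101 at slice 1 week, 153 and 244 at slice 3 weeks, and 113 and 106 in vitro. The slice 3 weeks libraries lay above all others but differed from each other, and the slice 1 week and in vitro ranges overlapped. mt-Nd5 was 3.19-fold higher at slice 3 weeks than in adult (log2 fold change 1.67, SE 0.26, adjusted p = 6.59e-04) and 1.88-fold higher in vitro (0.91, SE 0.26, adjusted p = 0.0113), while at slice 1 week the value of 0.78 had an adjusted p of 0.0603. At slice 3 weeks it was called in all 18 alternative settings tried, the leaving out of each library included.

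mt-Cytb, the subunit of complex III that carries its quinone sites, had a level of 1900.3 and 1612 in adult, 1458 and 1409 at slice 1 day, 1382 and 1990.3 at slice 1 week, 2077 and 1494 at slice 3 weeks, and 2338 and 2399 in vitro. The slice 1 day libraries were below the adult pair, the slice 1 week and slice 3 weeks libraries lay on both sides of it, and the in vitro libraries were above all others. mt-Cytb was called in vitro (log2 fold change 0.74, SE 0.19, adjusted p = 0.00799) and had the smallest fold change of the 10 genes there. Its log2 fold changes in slices were -0.17, 0.13 and 0.22 at 1 day, 1 week and 3 weeks, with adjusted p of 0.471, 0.658 and 0.391.

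Complex IV hands the electrons to oxygen, and its 3 mitochondrially encoded subunits form the catalytic core. mt-Co1, which holds the site where oxygen is reduced, had a level of 1394 and 1063 in adult, 2258 and 2238 at slice 1 day, 3448 and 4346 at slice 1 week, 3639.7 and 4079 at slice 3 weeks, and 4882 and 4893 in vitro. The groups followed each other from adult to in vitro without overlap, apart from slice 1 week and slice 3 weeks, whose ranges overlapped. Against adult the log2 fold change was 0.99 at slice 1 day (1.99-fold, SE 0.17, adjusted p = 7.77e-04), 1.86 at slice 1 week (3.63-fold, SE 0.18, adjusted p = 5.81e-05), 1.85 at slice 3 weeks (3.61-fold, SE 0.18, adjusted p = 3.76e-05) and 2.29 in vitro (4.91-fold, SE 0.18, adjusted p = 2.99e-06). These were the largest fold changes among the 10 genes in each of the 4 comparisons, and mt-Co1 was called in all 18 alternative settings in each of them. Over all barcodes its level was 1406 and 1071 in adult, 2349.8 and 2281 at slice 1 day, 3821 and 4923 at slice 1 week, 3945 and 4237 at slice 3 weeks, and 4961 and 4974 in vitro.

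mt-Co2, which receives electrons from cytochrome c, had a level of 1082 and 783 in adult, 1195 and 1125 at slice 1 day, 1352 and 1640.0 at slice 1 week, 1689.7 and 1359.7 at slice 3 weeks, and 2072 and 2347 in vitro. mt-Co3, the third core subunit, had a level of 2786 and 1938 in adult, 2442 and 2501 at slice 1 day, 2911 and 3749.6 at slice 1 week, 3596 and 2796 at slice 3 weeks, and 4836 and 5438 in vitro. Each of the 8 culture libraries was above both adult libraries for mt-Co2, while for mt-Co3 the slice 1 day libraries lay inside the adult range and slice 3 weeks replicate 2 was just above its upper end. Against adult mt-Co2 had a log2 fold change of 0.43 at slice 1 day (adjusted p = 0.0736), 0.88 at slice 1 week (SE 0.19, adjusted p = 0.00652), 0.91 at slice 3 weeks (SE 0.19, adjusted p = 0.00380) and 1.55 in vitro (SE 0.19, adjusted p = 7.21e-05). The values for mt-Co3 were 0.18 (adjusted p = 0.465), 0.69 (SE 0.21, adjusted p = 0.0285), 0.63 (SE 0.20, adjusted p = 0.0314) and 1.42 (SE 0.21, adjusted p = 2.09e-04). The call of mt-Co3 was lost at slice 1 week without adult replicate 2 (log2 fold change 0.42) or without either slice library (0.84 and 0.52), and at slice 3 weeks without adult replicate 2 (0.37) or slice 3 weeks replicate 1 (0.46). It was also lost with scaling by library size alone (0.50 at slice 1 week and 0.44 at slice 3 weeks), in cells with 2000 to 8000 UMIs (0.69 and 0.63) and, at slice 3 weeks, in a fit of the compared groups alone (0.70). At slice 1 week mt-Co2 fell short of the threshold without slice 1 week replicate 2 (0.76, adjusted p = 0.0503), which left mt-Co1 as the only call there.

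mt-Atp6, the subunit of ATP synthase that forms its proton channel, had a level of 2615 and 2075 in adult, 2652 and 2627 at slice 1 day, 2582 and 3363 at slice 1 week, 3393 and 2413 at slice 3 weeks, and 4359 and 4747 in vitro. The slice 1 day pair lay just above the adult pair, the slice 1 week and slice 3 weeks pairs overlapped with it, and the in vitro libraries were above all others. mt-Atp6 was called in vitro (2.40-fold, log2 fold change 1.26, SE 0.20, adjusted p = 3.14e-04), and its values at slice 1 week (0.53, adjusted p = 0.0605) and slice 3 weeks (0.50, adjusted p = 0.0600) missed both thresholds.

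**Figure D3:**
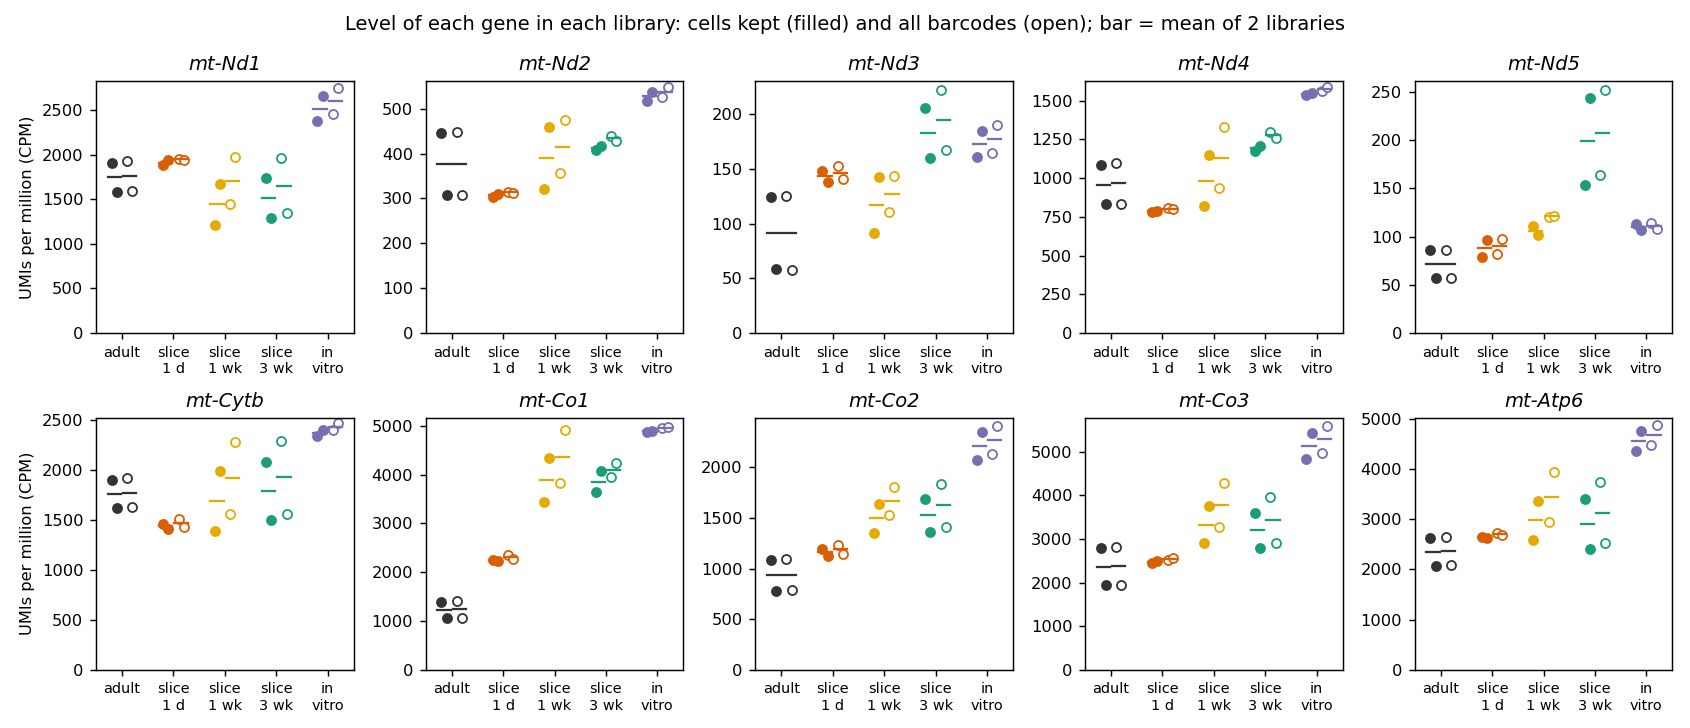
Level of each of the 10 genes (y axis, CPM, from 0) in each library by group (x axis), for kept cells (filled) and all barcodes (open), with bars for the mean of 2 libraries. In vitro libraries lie above adult in each panel, mt-Co1 is higher in each culture group than in adult, and mt-Nd5 is highest at slice 3 weeks.

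The number of calls in slices depended on the adult pair. Without adult replicate 1, the number of the 10 genes called higher was 4 at slice 1 day, 6 at slice 1 week and 8 at slice 3 weeks, and without adult replicate 2 it was 1, 2 and 4, and 7 in vitro. Over all genes, of which 24.9%, 15.0% and 18.0% of 12155 were called higher at slice 1 day, 1 week and 3 weeks with all libraries, the numbers were 2701, 1619 and 1778 of 12570 without adult replicate 1, and 2685, 1513 and 1670.0 of 12776 (2406 in vitro) without adult replicate 2. In vitro the calls lost without adult replicate 2 were those of mt-Nd2 (log2 fold change 0.52), mt-Nd5 (0.63) and mt-Cytb (0.60). Those of mt-Nd1 (0.53), mt-Nd2 (0.49) and mt-Cytb (0.43) were lost with scaling by library size alone, and those of mt-Nd1 (0.60), mt-Nd2 (0.68), mt-Nd3 (0.90) and mt-Cytb (0.66) in cells with 2000 to 8000 UMIs. The libraries of the same study label could be compared at slice 3 weeks: slice 3 weeks replicate 1 exceeded adult replicate 1 by 1.54 on the log2 scale for mt-Co1 and 0.99 for mt-Nd5, and slice 3 weeks replicate 2 exceeded adult replicate 2 by 2.19 and 2.34. For mt-Nd1 the same differences were 0.02 and -0.05. Within the label of the other 8 libraries, each in vitro library exceeded adult replicate 2 in all 10 genes, by 0.85 (mt-Cytb) to 2.55 (mt-Co1). A fit with study label as a covariate gave 10, 3, 5 and 5 calls in vitro and at slice 1 day, 1 week and 3 weeks.

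Because a ratio of 2 genes within a library does not depend on scaling, the balance among the 10 genes was described by such ratios. mt-Co1 took 10.4% and 10.3% of the 10 genes' UMIs in adult, 17.1% and 17.0% at slice 1 day, 24.2% and 23.4% at slice 1 week, 20.1% and 26.4% at slice 3 weeks, and 21.1% and 19.7% in vitro. mt-Nd1 took 14.2% and 15.3% in adult, 14.3% and 14.7% at slice 1 day, 8.51% and 8.99% at slice 1 week, 9.61% and 8.32% at slice 3 weeks, and 10.2% and 10.7% in vitro. In adult and slice 1 day microglia mt-Nd1 thus held a larger part than in the other 3 groups, without overlap, and mt-Co1 held a smaller part. The number of mt-Co1 UMIs per mt-Nd1 UMI was 0.701 ± 0.0405 in adult, 1.18 ± 0.0312 at slice 1 day, 2.72 ± 0.179 at slice 1 week, 2.63 ± 0.760 at slice 3 weeks and 1.95 ± 0.152 in vitro (SD, n = 2 libraries).

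The summed UMIs of the 5 complex I genes per UMI of the 3 complex IV genes were 0.694 and 0.749 in adult, 0.542 and 0.558 at slice 1 day, 0.331 and 0.362 at slice 1 week, 0.412 and 0.403 at slice 3 weeks, and 0.399 and 0.397 in vitro. Each culture library was below each adult library, and the slice 3 weeks libraries lay just above the in vitro libraries. The ratio of mt-Nd5 to mt-Nd1 was 0.0450 and 0.0362 in adult, 0.0420 and 0.0499 at slice 1 day, 0.0917 and 0.0605 at slice 1 week, 0.0884 and 0.190 at slice 3 weeks, and 0.0476 and 0.0400 in vitro. It was above the adult, slice 1 day and in vitro range in all 4 libraries of the later slices, with a wide spread between the slice 3 weeks libraries.

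**Figure D4:**
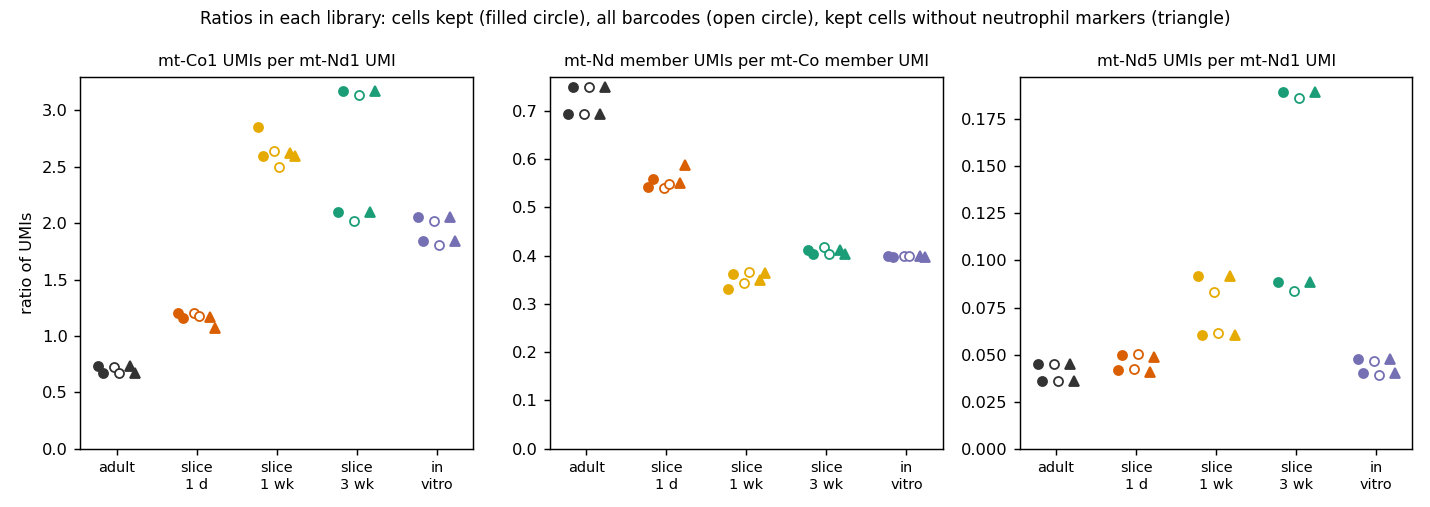
Ratio of UMIs of 2 genes or of 2 sums of genes (y axes, from 0) in each library by group, for kept cells (filled circle), all barcodes (open circle) and kept cells without neutrophil markers (triangle). mt-Co1 per mt-Nd1 is lowest in adult, complex I per complex IV is highest in adult, and mt-Nd5 per mt-Nd1 is highest in slice 3 weeks replicate 2 at 0.190.

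Other cells and depth moved with these ratios in the early slices. Cells in which the neutrophil markers S100a8 and S100a9, without the other markers, together made up at least 1% of UMIs numbered 68 and 114 at slice 1 day, 24 and 1 at slice 1 week, and 0 elsewhere. In the slice 1 day libraries these cells had 0.701% and 0.938% of UMIs from mt- genes, against 1.36% and 1.37% in the other cells of the same libraries. Their mt-Co1 UMIs per mt-Nd1 UMI were 4.45 and 4.54 against 1.17 and 1.07, and in slice 1 week replicate 1 they were 7.98 against 2.62. Without these cells the ratio at slice 1 day was 1.12 ± 0.0709 (SD, n = 2), still above both adult libraries, and mt-Co1 remained called there.

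Without those cells, the ratio of mt-Co1 to mt-Nd1 was also set beside depth, by quartiles of UMIs per cell. From the lowest to the highest quartile it went from 1.91 to 0.936 and from 1.45 to 0.917 in the slice 1 day libraries, and from 2.50 to 1.80 and from 2.25 to 1.56 in vitro. In adult it stayed between 0.693 and 0.745 in replicate 1 and between 0.651 and 0.695 in replicate 2. Even in the highest quartile the slice 1 day values were above every adult quartile. In cells with 2000 to 8000 UMIs in all groups, mt-Co1 was called against adult in each of the 4 comparisons, and the number of genes called was 6 in vitro, 1 at slice 1 day, 2 at slice 1 week and 4 at slice 3 weeks. This range held 215 and 140 of the 2417 and 2682 kept cells in vitro, and 83 and 25 cells at slice 1 week. In adult it held 3252 and 1376 cells. Whether calls were lost in this range through fewer cells was not tested. The nuclear RNA Malat1 took 4.01% and 5.16% of UMIs in adult and 0.795% to 1.80% in the other 8 libraries, and its part in the differences between groups was not tested.

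Between kinds of culture, in vitro microglia were compared with those of slices kept for the same 3 weeks. Of the 10 genes 4 were higher in vitro (13.3% of all genes were called higher) and 1 was lower (20.0% were called lower), with a median log2 fold change of 0.50 beside -0.10 over all genes. mt-Nd1 was 1.79-fold higher (log2 fold change 0.84, SE 0.19, adjusted p = 0.00632), mt-Co3 1.73-fold (0.79, SE 0.21, adjusted p = 0.0120), mt-Atp6 1.69-fold (0.76, SE 0.19, adjusted p = 0.0113) and mt-Co2 1.56-fold (0.64, SE 0.19, adjusted p = 0.0222). mt-Nd5 was lower (log2 fold change -0.76, SE 0.25, adjusted p = 0.0362). For mt-Co1 the difference of 0.44 (SE 0.17) had an adjusted p of 0.0645, and for mt-Nd3 it was 0.03 (SE 0.30). None of the 10 was called in this comparison in cells with 2000 to 8000 UMIs, and the call of mt-Nd5 was lost without in vitro replicate 1 or 2 (log2 fold changes -0.71 and -0.65) and without slice 3 weeks replicate 2 (-0.30). Without in vitro replicate 2, mt-Nd1 alone was called, with log2 fold changes of 0.76 for mt-Co3, 0.75 for mt-Atp6 and 0.61 for mt-Co2. The call of mt-Co2 was also lost without slice 3 weeks replicate 2 (0.58) and with scaling by library size alone (0.53, below the threshold on size).

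Over time in slices, 3 of the 10 genes were higher at 3 weeks than at 1 day, where 13.9% of all genes were called higher, and none was lower, where 12.8% were called lower. They were mt-Nd5 (2.39-fold, log2 fold change 1.26, SE 0.26, adjusted p = 0.00535), mt-Co1 (1.81-fold, 0.86, SE 0.17, adjusted p = 0.00482) and mt-Nd4 (1.60-fold, 0.68, SE 0.18, adjusted p = 0.0171). The other 7 had log2 fold changes from -0.26 (mt-Nd1) to 0.50 (mt-Nd2), and the median of the 10 was 0.46 beside 0.05 over all genes. The call of mt-Nd4 was lost on leaving out either slice 1 day library (log2 fold changes 0.65 and 0.71) or slice 3 weeks replicate 2 (0.65), and in cells with 2000 to 8000 UMIs, where the fold was larger (0.78, adjusted p = 0.0530). Those of mt-Co1 and mt-Nd5 were kept in all 18 alternative settings.

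Over the 10 libraries, the 10 genes did not all follow each other. Pearson's r of log2 TMM-scaled levels was 0.983 between mt-Co3 and mt-Atp6, 0.981 between mt-Co2 and mt-Co3 and 0.980 between mt-Nd2 and mt-Nd4, while it was 0.417 between mt-Nd1 and mt-Co1 and 0.011 between mt-Nd1 and mt-Nd5. The points share library, depth and scaling, and these values are given as a description. Among nuclear genes with a mean log2 level of at least 5, those whose pattern over the 10 libraries was most like the summed complex IV genes were Ctla2b, S100a1 and Pltp (r = 0.975, 0.973 and 0.971), and for mt-Atp6 they were Mcee, Slc43a2 and Mpp1 (r = 0.956 for Mcee). For the summed complex I genes they were H2-T22, Cuta and Ndufc2 (r = 0.938, 0.938 and 0.933), and for mt-Cytb Ndufc2, Mcee and Lamp1 (r = 0.948, 0.903 and 0.903). Ndufc2 encodes a nuclear subunit of complex I.

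The nuclear genome supplies the other subunits of these complexes. Of 77 tested nuclear subunits of complexes I to V, 63 were called higher in vitro than in adult, 59 at slice 1 day, 49 at slice 1 week and 47 at slice 3 weeks, and none was called lower. Of all genes 22.4%, 24.9%, 15.0% and 18.0% were called higher in these comparisons. The medians of the subunits' log2 fold changes were 1.20, 0.99, 0.68 and 0.71, beside -0.11, -0.06, -0.08 and -0.03 over all genes. With scaling by library size alone 32 were called higher at slice 1 week. At slice 1 day, where mt-Co1 alone was called among the 10 mitochondrial genes, 22 of 36 nuclear complex I subunits, 7 of 9 of complex III, 11 of 11 of complex IV and 17 of 17 of complex V were called higher. Cox5a, a small subunit of complex IV, was 2.34 higher on the log2 scale in vitro (SE 0.14, adjusted p = 3.98e-07) and 1.12 at slice 3 weeks (SE 0.13, adjusted p = 1.28e-04). Ndufa1, an accessory subunit of complex I, was 1.55 higher in vitro (SE 0.16) and 1.71 at slice 3 weeks (SE 0.17), and Uqcr10 of complex III was 1.63 and 1.13 higher (SE 0.14 and 0.14). Atp5k of ATP synthase was 1.96 and 1.08 higher (SE 0.22 and 0.22). Complex II has no mitochondrially encoded subunit. Of its 4 genes, Sdhb (0.77) and Sdhc (0.81) were called in vitro, Sdhd (0.56) missed the threshold on size, Sdha had 0.08, Sdhb (0.75) and Sdhc (0.80) were called at slice 1 day, and none of the 4 was called at slice 1 week or slice 3 weeks. With scaling by library size alone 0 of the 4 were called in vitro.

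**Figure D5:**
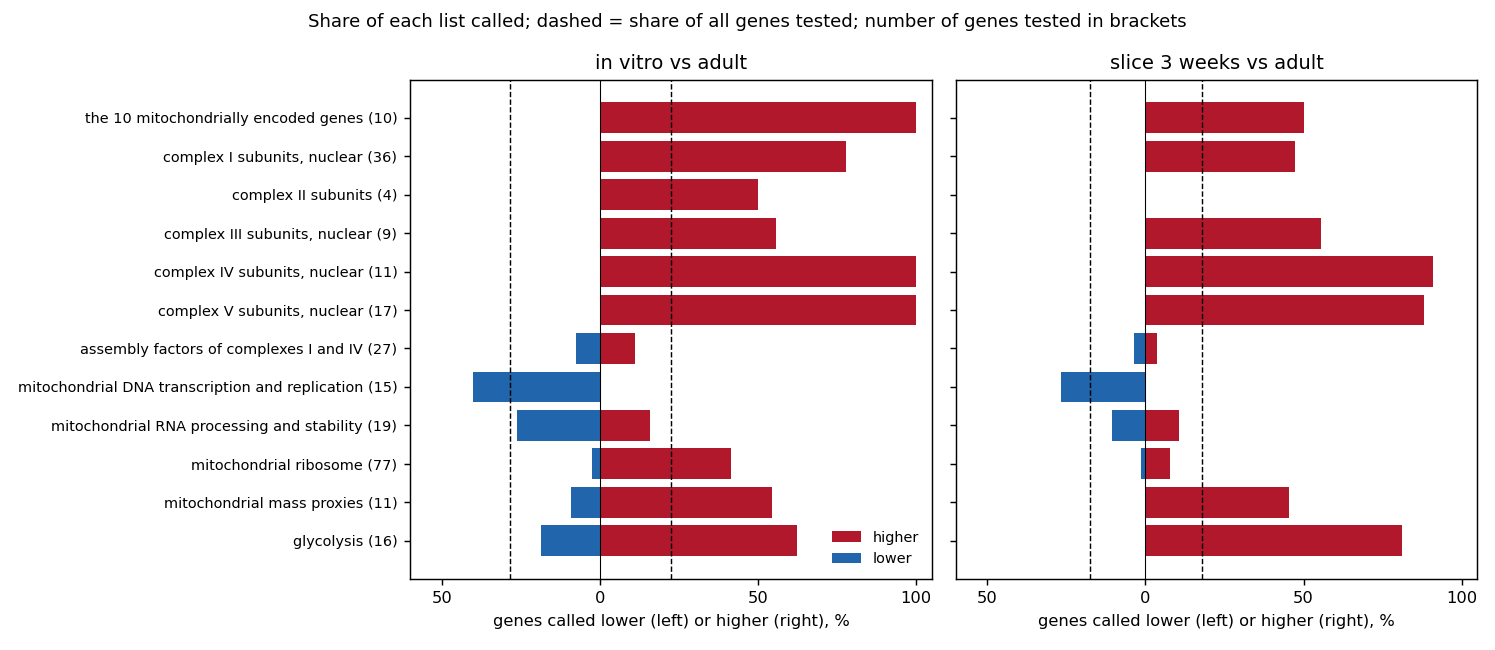
Percent of the tested genes of each list called higher (right of 0) or lower (left of 0) in vitro and at slice 3 weeks against adult, with dashed lines for the percent over all 12155 genes. All 11 nuclear complex IV and all 17 complex V subunits were called higher in vitro, as were all 10 mitochondrially encoded genes, and no gene of mitochondrial DNA transcription and replication was called higher.

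From 1 day to 3 weeks in slices, where 3 of the 10 mitochondrial genes were higher, 2 of the 77 nuclear subunits were higher and 11 lower (13.9% and 12.8% of all genes), with a median log2 fold change of -0.22 beside 0.05 over all genes. Without slice 1 day replicate 2 the number lower was 4, and in cells with 2000 to 8000 UMIs the number higher was 0. Cox5a was lower by 0.66 on the log2 scale (SE 0.13), while Ndufa1 (0.67, SE 0.16) and Uqcrh (0.63, SE 0.19) were the 2 that were higher. The mitochondrial ribosome translates the messages of the 10 genes. Of its 77 tested genes, 32 were higher and 2 lower in vitro than in adult, 42 were higher at slice 1 day, 8 were higher and 2 lower at slice 1 week, and 6 were higher and 1 lower at slice 3 weeks, where 22.4%, 24.9%, 15.0% and 18.0% of all genes were called higher, so that at slice 1 week and 3 weeks the share of the list called higher was below that of all genes. The medians of its log2 fold changes were 0.45, 0.61, 0.09 and 0.10. Named after their values were seen, those called lower were Mrpl53 and Mrps2 in vitro, Mrpl36 and Mrps2 at slice 1 week, and Mrps2 at slice 3 weeks. From 1 day to 3 weeks 28 of the 77 were lower and none was higher, where 12.8% of all genes were lower. Mrpl28, a protein of its large subunit, was 2.04 higher in vitro on the log2 scale (SE 0.17) and 0.66 at slice 3 weeks (SE 0.17). Its value at slice 3 weeks ran from 0.44 to 0.91 over the alternative settings, so it fell below the threshold on size in some of them.

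None of the genes that copy and read the mitochondrial genome was called higher in culture. Of 15 tested genes of mitochondrial DNA transcription and replication, 0 were called higher and 6, 3, 3 and 4 were called lower than in adult in vitro and at slice 1 day, 1 week and 3 weeks, with medians of -0.81, -0.44, -0.78 and -0.49 on the log2 scale. Of all genes 22.4%, 24.9%, 15.0% and 18.0% were called higher and 28.5%, 25.4%, 13.6% and 17.5% lower, and the highest log2 fold changes among the 15 were 0.15, 0.14, -0.15 and 0.29. DESeq2 also called none of the 15 higher. Named after their values were seen, the genes called lower in vitro were Mgme1, Mterf1a, Mterf3, Peo1, Polg2 and Tefm, and Tefm, an elongation factor of mitochondrial transcription, and Mgme1, a nuclease of mitochondrial DNA maintenance, were called lower in all 4 comparisons. Tefm was lower by 1.11 in vitro (adjusted p = 4.06e-04), 0.75 at slice 1 day (adjusted p = 0.00692), 1.77 at slice 1 week (adjusted p = 0.00228) and 1.13 at slice 3 weeks (adjusted p = 9.07e-04) on the log2 scale. Tfam, which packages the genome and starts its transcription, was called lower at slice 3 weeks alone (-0.65, adjusted p = 0.0129). The genes of this list named here all had a mean log2 level under 5, the limit used for naming genes, so their counts were low. With scaling by library size alone 12 and 8 of the list were called lower in vitro and at slice 3 weeks, and in cells with 2000 to 8000 UMIs 3 and 1. The 3 calls at slice 1 day fell to 1 without slice 1 day replicate 2, the 3 at slice 1 week to 0 without slice 1 week replicate 1 (6 without replicate 2), and the 4 at slice 3 weeks to 1 without adult replicate 1.

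Of 19 tested genes of mitochondrial RNA processing and stability, 3 were higher and 5 lower in vitro (22.4% and 28.5% of all genes), 6 were higher and 0 lower at slice 1 day (24.9% and 25.4%), 1 was higher and 1 lower at slice 1 week (15.0% and 13.6%), and 2 were higher and 2 lower at slice 3 weeks (18.0% and 17.5%). On leaving out 1 library the number lower in vitro was 2 without adult replicate 1 or either in vitro library, and the number higher at slice 1 day was 3 without adult replicate 1 or slice 1 day replicate 2. For slice 3 weeks 1 was higher without adult replicate 2, and 4 were higher and 4 lower without slice 3 weeks replicate 1. Over all barcodes 5 were higher and 3 lower in vitro. With scaling by library size alone 8 were lower in vitro and 6 at slice 3 weeks, and in cells with 2000 to 8000 UMIs 3 and 0. Slirp, a partner of the RNA-binding protein that stabilises mitochondrial messages, was higher in all 4 comparisons, by 1.34 in vitro (SE 0.13), 1.21 at slice 1 day (SE 0.13), 0.69 at slice 1 week (SE 0.14) and 0.90 at slice 3 weeks (SE 0.13). Rexo2, an exonuclease that degrades short RNA, was higher by 1.18 in vitro (SE 0.17), and Fastk was lower by 0.85 (SE 0.16). Named after their values were seen, Trmt10c, a subunit of mitochondrial RNase P, was called lower in vitro (-1.04), at slice 1 week (-1.65) and at slice 3 weeks (-0.76), and Grsf1 (0.80) was called higher and Supv3l1 (-0.81) lower at slice 3 weeks. Trmt10c, Grsf1 and Supv3l1 had a mean log2 level under 5.

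Of 27 tested assembly factors of complexes I and IV, 3 were higher (Cox14, Cox19 and Pet100) and 2 lower (Ndufaf7 and Foxred1, the latter named after its value was seen) in vitro, and at slice 3 weeks Pet100 was higher and Ndufaf7 lower. The counts were 6 higher and 3 lower at slice 1 day, and 2 higher and 4 lower at slice 1 week. Over all barcodes 6 were higher and 1 lower in vitro and 10 higher at slice 1 day. Ndufaf7 was called in vitro in all 18 alternatives, so that the call of Foxred1 was lost over all barcodes, as it was without either in vitro library. With scaling by library size alone 10 were lower in vitro, 7 at slice 1 week and 5 at slice 3 weeks, and 2 were higher at slice 1 day and 0 at slice 1 week. The 4 lower at slice 1 week were 0 without slice 1 week replicate 1 or in cells with 2000 to 8000 UMIs, and 1 without either adult library. On leaving out 1 library the number lower at slice 1 day went down to 1 (without slice 1 day replicate 2), the number higher in vitro went up to 6 (without in vitro replicate 1), and the number higher at slice 1 day went down to 3 (without adult replicate 2). The call of Pet100 at slice 3 weeks was lost without either adult library or slice 3 weeks replicate 1. Of all genes 22.4%, 24.9%, 15.0% and 18.0% were higher and 28.5%, 25.4%, 13.6% and 17.5% lower in vitro and at slice 1 day, 1 week and 3 weeks. Ndufaf7, a methyltransferase needed to assemble complex I, was lower by 1.74 in vitro (SE 0.17) and by 0.81 at slice 3 weeks (SE 0.17). Of 6 regulators of mitochondrial biogenesis, Gabpb1, part of nuclear respiratory factor 2, was called lower in each comparison with adult (-1.11 in vitro, -0.75 at slice 1 day, -0.84 at slice 1 week and -0.87 at slice 3 weeks), Esrra was lower at slice 3 weeks (-0.78), and none was higher, both genes being named after their values were seen. These are 1 or 2 calls of 6, where 28.5%, 25.4%, 13.6% and 17.5% of all genes were called lower. Gabpb1 and Esrra had a mean log2 level under 5. No gene of this list was called lower without adult replicate 2 in any slice group, without slice 1 day replicate 2 at slice 1 day, or without either slice 1 week library or with no mt- limit at slice 1 week. Of 11 genes often used as proxies of mitochondrial mass, 6 were higher and 1 lower (Timm23, -1.18, named after its value was seen) in vitro, 9 were higher at slice 1 day, 5 at slice 1 week and 5 at slice 3 weeks, beside 22.4%, 24.9%, 15.0% and 18.0% of all genes. The medians of the log2 fold changes were 0.71, 1.24, 0.58 and 0.44. The 5 at slice 1 week were 2 without slice 1 week replicate 1 and 3 without replicate 2, and the 6 in vitro were 3 with scaling by library size alone or in cells with 2000 to 8000 UMIs. The call of Timm23 was lost without adult replicate 2 or either in vitro library. Citrate synthase (Cs) was 1.02 higher in vitro and 0.78 at slice 3 weeks, and the outer membrane channel Vdac1 0.77 and 1.06.

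Glycolysis is the other main source of ATP. Of 16 tested genes, 10 were higher and 3 lower in vitro than in adult (Hk2, Slc16a3 and Slc2a1, named after their values were seen), and 12, 12 and 13 were higher at slice 1 day, 1 week and 3 weeks, with median log2 fold changes of 1.47, 2.62, 2.05 and 2.19. Of all genes 22.4%, 24.9%, 15.0% and 18.0% were called higher there and 28.5% lower in vitro. The number lower in vitro was 2 over all barcodes. At slice 1 day Hk2 was called lower in kept cells, and this call was lost over all barcodes, in cells with 2000 to 8000 UMIs and without adult replicate 1 or either slice 1 day library. In vitro against slice 3 weeks 11 of the 16 were lower and none was higher (20.0% and 13.3% of all genes), where 4 of the 10 mitochondrial genes were higher. The number lower was 5 without in vitro replicate 1 and 7 without in vitro replicate 2 or slice 3 weeks replicate 2. Pkm, pyruvate kinase, was 2.04 higher in vitro (SE 0.18) and 2.68 at slice 3 weeks (SE 0.18) than in adult on the log2 scale, and lower by 0.64 in vitro than at slice 3 weeks (SE 0.17, adjusted p = 0.0148). Gapdh and Tpi1 were lower by 0.76 and 0.79 in that comparison (SE 0.22 and 0.20).

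The 3 mt- genes outside the 10 had low levels. mt-Atp8 had 33.3 and 15.7 CPM in adult, 35.5 and 66.5 at slice 1 day, 73.1 and 54.5 at slice 1 week, 61.5 and 71.8 at slice 3 weeks, and 31.9 and 27.4 in vitro. mt-Nd4l had 78.5 and 53.0 in adult, 104 and 138 at slice 3 weeks, and 49.5 and 43.2 in vitro, and mt-Nd6 had at most 12.9 in any library. At slice 3 weeks, where 18.0% of all genes were called higher, all 3 were higher than in adult (log2 fold changes 1.62, 1.08 and 1.76 for mt-Atp8, mt-Nd4l and mt-Nd6), whereas in vitro, beside 22.4% of all genes, mt-Nd6 was higher (1.21) and mt-Atp8 (0.54) and mt-Nd4l (-0.21) were not called. In vitro against slice 3 weeks mt-Atp8 (-1.07) and mt-Nd4l (-1.29) were lower, as mt-Nd5 was, beside 20.0% of all genes. mt-Atp8 and mt-Nd4l share bases with mt-Atp6 and mt-Nd4, and how reads of overlapping genes were assigned was not tested.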

How the data were processed

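Each library has 1 table of unnormalised UMI counts for genes by barcodes, as deposited by the authors. Their processing notes name Cell Ranger 1.3.0 and mm10. The annotation, and whether tables precede aggregation, are not given in the sources used here. Absent genes were taken as 0, and 14 symbols listed more than once were summed.

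Kept cells met the limits on mt- share, genes and UMIs of the study's methods, whose further removal of outliers by t-SNE was not repeated. Their counts were summed per library, because cells are not replicates, and fitted in 1 edgeR 4.0.16 model of 5 groups (glmQLFit, glmQLFTest, TMM, filterByExpr with at least 10 counts, biological coefficient of variation 18.2%) in R 4.3.3, with adjustment over 12155 genes. The script was tested on simulated data. DESeq2 1.42.0 was an alternative. Replicate numbers were not treated as pairing libraries, and no block was used in the main fit.

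Of each list of related genes, at most 4 called genes with the largest log2 fold change and a mean log2 level of at least 5 were named, and every gene of lists of 4 or fewer. The 10 genes and all lists were chosen with earlier results of these data known. Cells were not tested for doublets.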

Additional observations from a re-analysis of the deposited data

Results flagged for a closer look

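Among the 10 genes, 8 differences between kinds of culture were singled out because the contrast between the groups itself passed the test (edgeR's quasi-likelihood test, Benjamini-Hochberg adjustment over all genes). In vitro against slice 3 weeks, mt-Nd1 (log2 fold change 0.84), mt-Co3 (0.79), mt-Atp6 (0.76) and mt-Co2 (0.64) were higher in both in vitro libraries than in both slice libraries, and mt-Nd5 was lower in both (-0.76). Slice 3 weeks against slice 1 day, mt-Nd5 (1.26), mt-Co1 (0.86) and mt-Nd4 (0.68) were higher in both libraries. The call of mt-Nd4 there was lost without either slice 1 day library, without slice 3 weeks replicate 2 and in cells with 2000 to 8000 UMIs. Between in vitro and slice 3 weeks, none of the 5 calls was made in cells with 2000 to 8000 UMIs, that of mt-Co2 was lost without in vitro replicate 2 or slice 3 weeks replicate 2, those of mt-Co3 and mt-Atp6 without in vitro replicate 2, and that of mt-Nd5 without either in vitro library or slice 3 weeks replicate 2. mt-Nd5 was the only gene of the 10 that passed in both contrasts.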

How the results depend on the processing

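Of 840 log2 fold changes of the 10 genes and the 6 comparisons under settings other than leaving out a library, 770 kept their direction and their side of the threshold, 20 lost the threshold, 33 gained it and 17 changed sign. On leaving out a library the numbers were 192, 19, 12 and 17 of 240. mt-Co1 was called in all 18 settings against adult in each culture and at slice 3 weeks against slice 1 day.

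The number of the 10 genes called higher in vitro against adult was 6 in cells with 2000 to 8000 UMIs. At slice 1 day it was 2 over all barcodes, with no mt- limit, with a limit of 10%, without neutrophil marker cells, with DESeq2 size factors, with DESeq2's Wald test, with no filter on low counts and with the replicate block, and 3 with study label as a covariate. At slice 1 week it was 5 over all barcodes, with no mt- limit, with the limit of 10%, with DESeq2 size factors or Wald test, with study label, or with only the 2 groups compared, and 2 with scaling by library size or in cells with 2000 to 8000 UMIs. In vitro against slice 3 weeks, 0 were higher and 0 lower in cells with 2000 to 8000 UMIs, and 0 lower with only the 2 groups.

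On leaving out 1 library the counts ranged from 7 to 10 in vitro, 1 to 4 at slice 1 day, 1 to 6 at slice 1 week and 4 to 8 at slice 3 weeks against adult, from 1 to 5 higher and 0 to 1 lower in vitro against slice 3 weeks, and from 2 to 3 at slice 3 weeks against slice 1 day. Without adult replicate 1 they were 4, 6 and 8 at slice 1 day, 1 week and 3 weeks, without slice 1 week replicate 1 or 2 they were 2 and 1, and without in vitro replicate 2 they were 1 higher and 0 lower against slice 3 weeks.

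Replicate numbers are shared between groups, and the correlation of same-numbered deviations ran from -0.100 to 0.087 over 10 pairs of groups, with none over 0.1. With 2 libraries a group these correlations cannot exclude a shared batch. For adult and slice 3 weeks the replicate number also goes with the study label. With the replicate block the counts were 10, 2, 3 and 5 against adult, 4 higher and 1 lower in vitro against slice 3 weeks, and 3 at slice 3 weeks against slice 1 day.

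The mt- share at slice 1 day (1.33%) was 1.36% over all barcodes, with the limit of 10% and without neutrophil marker cells, 1.37% with no mt- limit, 1.34% without cells lacking Malat1 and 1.22% in cells with 2000 to 8000 UMIs. The ratio of complex I to complex IV genes was 0.400 over all barcodes and 0.378 in cells with 2000 to 8000 UMIs in vitro (0.398), and 0.569 without neutrophil marker cells and 0.460 in cells with 2000 to 8000 UMIs at slice 1 day (0.550).

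Each value that changed sign was not called in the main setting. At slice 1 day mt-Nd1 was -0.0157 in cells with 2000 to 8000 UMIs and mt-Cytb 0.0162 with study label. At slice 1 week mt-Nd1 was 0.173 over all barcodes, 0.225 with no mt- limit and 0.103 with study label, and mt-Cytb -0.060 by library size. At slice 3 weeks mt-Nd1 was 0.157 over all barcodes, 0.184 with no mt- limit, 0.0826 with the limit of 10%, 0.0288 and 0.0283 with DESeq2 size factors and Wald test, 0.0573 with no filter and 0.0567 with only the 2 groups. In vitro against slice 3 weeks mt-Nd3 was -0.0171 with the limit of 10%, -0.262 in cells with 2000 to 8000 UMIs and -0.0820 by library size, and at slice 3 weeks against slice 1 day mt-Atp6 was -0.0134 with study label. On leaving out 1 library, values that changed sign ranged as follows. At slice 1 day, from the fit without adult replicate 2 to that without adult replicate 1, mt-Nd2 ranged from -0.44 to 0.195, mt-Nd4 from -0.365 to 0.114, mt-Cytb from -0.309 to 0.0236 and mt-Co3 from -0.0739 to 0.54. At slice 1 week mt-Nd1 ranged from -0.306 (without slice 1 week replicate 2) to 0.129 (without adult replicate 1) and was 0.111 without slice 1 week replicate 1, mt-Nd2 from -0.0415 (without adult replicate 2) to 0.60 (without adult replicate 1) and was -0.00832 without slice 1 week replicate 2, mt-Nd4 from -0.00786 (without slice 1 week replicate 2) to 0.502 (without adult replicate 1), and mt-Cytb from -0.123 to 0.352 (without slice 1 week replicate 2 and 1) and was -0.0182 without adult replicate 2. At slice 3 weeks, from the fit without slice 3 weeks replicate 1 to that without replicate 2, mt-Nd1 ranged from -0.222 to 0.230 (0.217 without adult replicate 1), mt-Cytb from -0.0139 to 0.480, and mt-Atp6 against slice 1 day from -0.0320 to 0.431. In vitro against slice 3 weeks mt-Nd3 ranged from -0.0650 (without slice 3 weeks replicate 2) to 0.212 (without in vitro replicate 1) and was -0.0198 without in vitro replicate 2. Among nuclear genes, Sdha in vitro was -0.0321 in cells with 2000 to 8000 UMIs and -0.226 by library size. At slice 3 weeks Sdha was 0.0250 over all barcodes, 0.0431 with no mt- limit, 0.0290 with no filter, 0.0243 with only the 2 groups, 0.00572 without adult replicate 2, and from -0.174 to 0.140 without slice 3 weeks replicate 1 or 2, and Cox19 was -0.0737 by library size and from -0.0362 to 0.379 without adult replicate 2 or 1. The cause of these changes was not tested.

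Of all genes tested, 12155 in the main setting, the counts that moved by over 1.5 times did so in cells with 2000 to 8000 UMIs or on leaving out a library, apart from 2504 lower at slice 1 week by library size and 1042 higher at slice 3 weeks against slice 1 day with only the 2 groups. The number tested was 10211 in cells with 2000 to 8000 UMIs and 11241 in that fit of 2 groups. It was 12530 to 12793 on leaving out a library, so these counts do not share 1 denominator. In cells with 2000 to 8000 UMIs 1767 were higher and 1702 lower in vitro against adult (2720 and 3463 in the main setting), 1033 and 1099 in vitro against slice 3 weeks (1616 and 2435), 1953, 860 and 1330.0 lower at slice 1 day, 1 week and 3 weeks (3087, 1651 and 2128), and 955 higher at slice 3 weeks against slice 1 day (1694). Without slice 1 week replicate 1, 858 were higher and 587 lower at slice 1 week (1822 and 1651). Without slice 1 day replicate 2, 1946 were lower at slice 1 day, and 657 higher and 785 lower at slice 3 weeks against slice 1 day (1694 and 1560), with 1113 higher without replicate 1. Without in vitro replicate 2, 2215 were lower than in adult, without in vitro replicate 1 or 2, 1391 and 1234 were lower than at slice 3 weeks, and without adult replicate 1, 1370 were lower at slice 3 weeks. Of the 77 nuclear subunits, 48 to 69 were higher in vitro, 32 to 53 at slice 1 week and 35 to 52 at slice 3 weeks against adult over the settings, each lowest by library size. The slice 1 week libraries held 61 and 148 cells.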
